A study of Mus musculus with 84 samples.

Results

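The proteasome genes measured in liver and inguinal adipose tissue (IAT) of treated diabetic mice were described here. They were chosen by name: a gene was taken if its name on the array started with Psma, Psmb, Psmc, Psmd, Psme, Psmf or Psmg followed by a number, and if at least 1 of its probes stood well above background in a treated group or in the untreated pool on a share of at least 0.5 of the arrays. The rule found 44 of 28599 gene names, and all 44 passed in both tissues. Psmc3ip, which encodes a recombination protein and shares only part of the name, was kept apart, which left 43 proteasome genes. These were 8 alpha and 7 constitutive beta subunits of the 20S core, 3 immunoproteasome subunits, 6 ATPases, 11 other subunits and 3 assembly factors of the 19S cap, 4 activators and 1 inhibitor. Of the 68 probes of all 44 gene names, 66 were tested in at least 1 tissue, and no spot of these genes was saturated.

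The samples came from db/db mice, which carry a mutant leptin receptor (strain BKS Cg-m+/+ Leprdb/J, males 8 weeks old, in the study's methods) and are obese and diabetic. In 6 groups the mice received rosiglitazone (RSG) by mouth for 18 days, at 28, 84 or 280 µmol/kg, with IAT and liver taken at each dose. In the other 6 groups they received a compound that the labels name only S, at the same molar doses, by the same route and for the same time. Each group held 6 mice, and RNA of each mouse was hybridised on 2 arrays with the dyes exchanged. On both arrays the other channel held a pool of RNA from the matching tissue of 6 vehicle-treated db/db controls, called untreated below. The pool is 1 control sample, so the spread between untreated mice entered no test. All 12 groups were of db/db mice, without a lean control. The study reported that RSG lowered blood glucose at each dose, to the level of lean mice from the middle dose. It gave no blood glucose for S. All values below are log2 ratios of a treated mouse over the pool, where 0 means equal RNA levels, and a gene was called higher or lower at an adjusted p under 0.05 (limma, Benjamini-Hochberg over all probes tested in the tissue). Whole tissue was measured, so fewer cells of a type and less RNA per cell cannot be told apart.

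The proteasome degrades proteins that carry ubiquitin. Its 20S core is a barrel of alpha and beta rings in which Psmb5, Psmb6 and Psmb7 carry the proteolytic sites, and the 19S cap, made of Psmc and Psmd subunits, binds, unfolds and feeds in the substrate. In cells exposed to interferon gamma, Psmb8, Psmb9 and Psmb10 take the places of Psmb5, Psmb6 and Psmb7 in new particles, and the PA28 activator made of Psme1 and Psme2 docks on the core, which favours peptides for antigen presentation.

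Before the results, 3 facts of the whole series bear on them. In the table of ratios that the authors deposited beside the array files, 80 of 84 columns followed their own arrays, and the columns of IAT S 84 replicate 6 and IAT S 280 replicates 4, 5 and 6 did not, so the array files were used. The IAT S 280 arrays were scanned on days with no other group, so scan day and group cannot be told apart there. Markers of other tissue moved in IAT: of 5 skeletal muscle markers, 4 were lower in RSG 280 and 5 in S 280 (median log2 ratio -1.67 and -3.31), and the median of these markers ran over mice from -3.69 to 0.62 in RSG 280 and from -4.12 to -1.91 in S 280. In liver the 3 tested muscle markers were lower too (median -1.19 and -1.31). In IAT, of 5 epithelium markers, 3 were lower at 280 µmol/kg of either compound (median -2.72 and -3.78). All 7 adipocyte markers were above background on every IAT array of the pool, and the 6 hepatocyte markers on the chip were above background on every liver array of the pool. The part of muscle and epithelium in the results for IAT was not tested.

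Promoters are shown for the genes on which the results turn: Psma1 and Psmb5, which were higher in all 12 groups, Psmd4, which was higher in all 12 by its brighter probe but not by its second, and Psmb8 and Psmb9, which moved apart from them. Each window runs from 250 bases before to 50 bases after the gene's start (RefSeq, GRCm38.p6), 5′ to 3′ on the strand of the gene. Psma1 lies at chr7:114276067-114276366 (minus strand), Psmb5 at chr14:54617946-54618245 (minus), Psmd4 at chr3:95042565-95042864 (minus), Psmb8 at chr17:34197945-34198244 (plus) and Psmb9 at chr17:34187281-34187580 (minus). Capitals mark the motifs found.
Psma1: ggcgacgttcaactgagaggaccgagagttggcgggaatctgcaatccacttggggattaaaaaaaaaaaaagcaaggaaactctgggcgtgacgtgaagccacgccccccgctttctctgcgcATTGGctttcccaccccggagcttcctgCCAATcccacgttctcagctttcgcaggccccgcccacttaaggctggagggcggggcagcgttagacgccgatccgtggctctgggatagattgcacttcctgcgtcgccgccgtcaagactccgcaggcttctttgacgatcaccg
Psmb5: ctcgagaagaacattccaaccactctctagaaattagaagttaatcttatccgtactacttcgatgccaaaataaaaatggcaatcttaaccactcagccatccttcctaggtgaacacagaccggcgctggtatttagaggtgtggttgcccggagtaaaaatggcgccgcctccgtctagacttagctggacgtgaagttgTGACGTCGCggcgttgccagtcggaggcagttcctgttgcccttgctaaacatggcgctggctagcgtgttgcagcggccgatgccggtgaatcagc
Psmd4: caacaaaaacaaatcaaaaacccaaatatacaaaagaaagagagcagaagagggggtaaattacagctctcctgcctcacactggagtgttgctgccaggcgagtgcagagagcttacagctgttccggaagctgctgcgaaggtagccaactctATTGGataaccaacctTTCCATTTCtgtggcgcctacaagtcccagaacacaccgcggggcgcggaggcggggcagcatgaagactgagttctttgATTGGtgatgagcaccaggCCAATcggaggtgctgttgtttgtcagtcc
Psmb8: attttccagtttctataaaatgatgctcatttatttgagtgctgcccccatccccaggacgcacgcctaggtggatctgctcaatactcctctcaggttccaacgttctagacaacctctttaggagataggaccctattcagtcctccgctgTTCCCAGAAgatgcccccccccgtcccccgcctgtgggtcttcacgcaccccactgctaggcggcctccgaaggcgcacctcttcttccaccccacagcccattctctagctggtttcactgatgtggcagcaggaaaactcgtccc
Psmb9: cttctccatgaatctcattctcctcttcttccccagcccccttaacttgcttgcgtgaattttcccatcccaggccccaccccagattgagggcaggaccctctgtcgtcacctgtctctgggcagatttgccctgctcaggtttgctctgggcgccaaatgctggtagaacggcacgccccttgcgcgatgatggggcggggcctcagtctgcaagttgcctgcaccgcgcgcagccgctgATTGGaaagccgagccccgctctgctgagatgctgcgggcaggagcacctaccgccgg
The capitals are CCAAT boxes in Psma1, Psmd4 and Psmb9, the antioxidant response core in Psmb5, the short interferon response element in Psmd4, and a gamma-activated site in Psmb8.

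The motifs were searched on both strands in the 36 of 43 genes that had a window. The antioxidant response core TGACNNNGC, which Nrf1 and Nrf2 bind, was found in 4 of 25 constitutive subunits of the 20S and 19S (16%; Psmb5 and Psmb6 among them) and in 0 of 3 immunoproteasome subunits, against 12.4% of all 32851 promoter windows. The short interferon response element GAAANNGAA was found in 4 of 25 constitutive subunits (16%), in 0 of 3 immunoproteasome subunits and in Psme1, against 8.56% of all windows. The gamma-activated site TTCNNNGAA was found in 1 of 25 constitutive subunits (4%) and in Psmb8, against 8.3% of all windows. CCAAT was found in 10 of 25 constitutive subunits (40%), against 37.4% of all windows. These are matches of letters and no measure of binding, and motifs outside these windows were not searched.

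In IAT, most of the constitutive proteasome rose at 280 µmol/kg of either compound. At this dose, 26 of 31 constitutive 20S and 19S subunits were higher and 0 lower with RSG, and 27 were higher and 0 lower with S (5 and 4 were not called, and at an unadjusted p under 0.05 the numbers of genes past the threshold were the same, 26 and 27). Their median log2 ratio was 0.28 with RSG and 0.33 with S, beside 0.04 and 0.06 over all probes tested. In each of the 36 IAT samples the median over the 31 subunits lay above 0, from 0.13 to 0.34 in RSG 280 and from 0.27 to 0.41 in S 280. At 28 µmol/kg fewer passed the test, with 19 higher and 3 lower with RSG and 17 and 2 with S. At 84 µmol/kg, 26 were higher and 1 lower with RSG, as many higher as at 280 µmol/kg, and 23 and 1 with S. With scan day in the fit, 5 of 43 genes were called in RSG 28, against 29 without it. Over all 43 genes, 31 were higher and 2 lower with RSG 280, where 37.1% of all probes were called higher and 29.8% lower. With S 280, 32 were higher and 4 lower, against 42.7% and 32.0% of all probes.

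**Figure D1:**
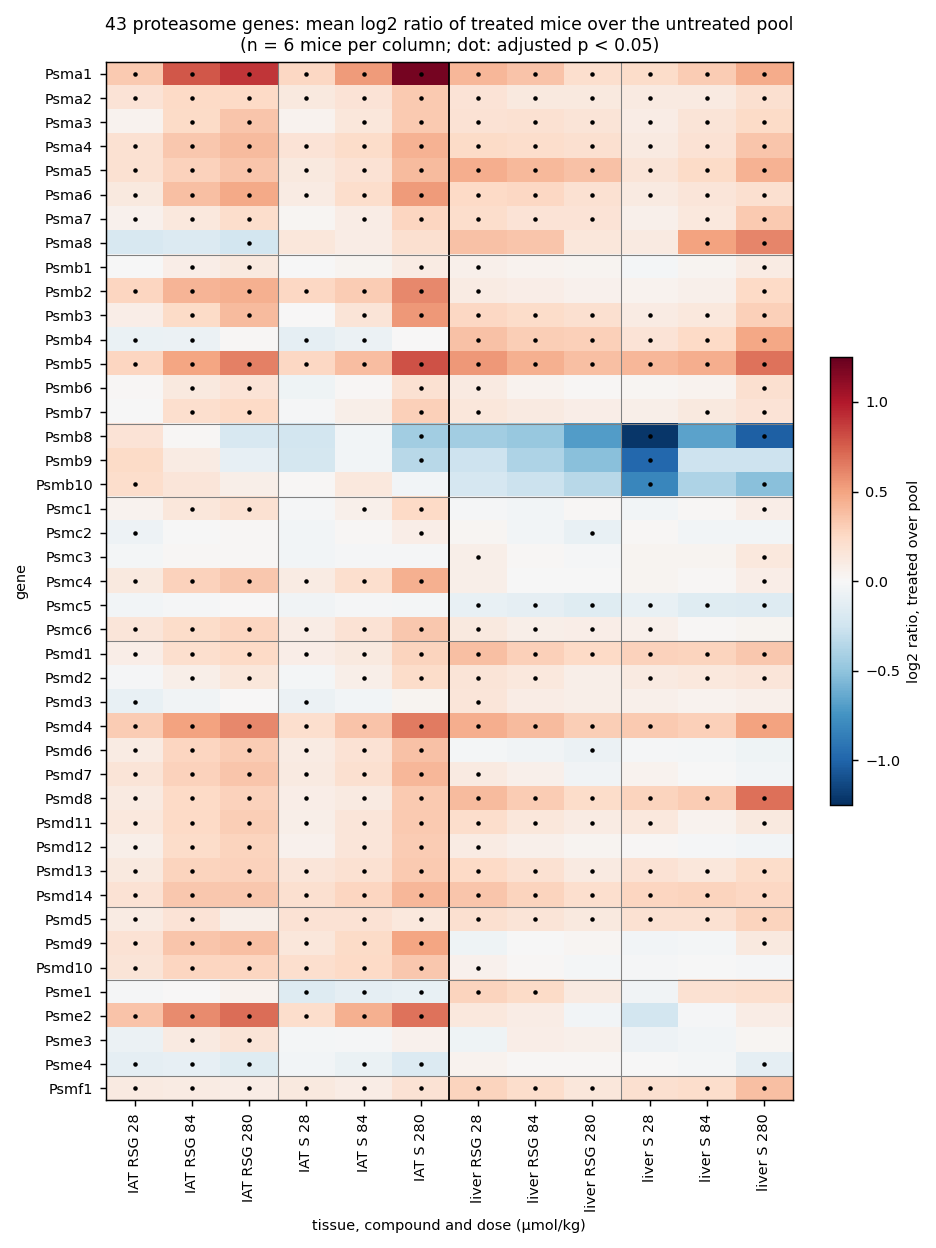
Mean log2 ratio of treated mice over the untreated pool for the 43 proteasome genes (rows, in the order alpha, beta, immunoproteasome, ATPase, non-ATPase, assembly, activator, inhibitor) in 12 groups (columns, n = 6 mice each), with a dot where the adjusted p was under 0.05. Red runs through most alpha, beta and non-ATPase rows of IAT and deepens with dose, up to 1.19 for Psma1 in S 280. Exceptions in IAT are Psma8, Psmb4 and Psmd3, with lowest group means of -0.23, -0.11 and -0.10. The immunoproteasome rows are blue in liver, down to -1.22 for Psmb8 in S 28.

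Psma1, an alpha subunit of the outer ring, rose most. In IAT of RSG 280 its log2 ratio ran from 0.48 over a median of 0.98 to 1.05, with a mean of 0.89 ± 0.22 (SD, n = 6; +85.6%, adjusted p = 2.8e-15, limma). In S 280 it ran from 1.09 over 1.17 to 1.38, with a mean of 1.19 ± 0.10 (+128%, adjusted p = 1.61e-18, limma). All 12 mice lay above the pool by more than any mouse of either 28 µmol/kg group (0.19 to 0.43 with RSG and 0.21 to 0.30 with S). Psma6, a further alpha subunit, followed at 0.47 ± 0.11 in RSG 280 and 0.53 ± 0.10 in S 280. Of the 8 alpha genes, 7 were higher with either compound at 280 µmol/kg, and the exception was Psma8, a testis form of Psma7, at -0.23 ± 0.21 in RSG 280 (adjusted p = 0.0495, limma) and 0.20 ± 0.31 in S 280 (not called). The Psma8 call in RSG 280 was lost without any 1 of replicates 1, 2, 3, 4 or 6 (adjusted p up to 0.176).

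Psmb5, which carries the chymotrypsin-like site, rose most among the beta subunits. In RSG 280 it ran from 0.26 over 0.68 to 0.81, with a mean of 0.63 ± 0.19 (+54.4%, adjusted p = 4.59e-11, limma). In S 280 it ran from 0.65 over 0.77 to 0.97, with a mean of 0.79 ± 0.15 (+73.4%, adjusted p = 1.21e-13, limma). The other catalytic subunits rose less: Psmb6, with the caspase-like site, at 0.17 ± 0.05 in RSG 280 and 0.19 ± 0.09 in S 280, and Psmb7, with the trypsin-like site, at 0.25 ± 0.09 and 0.30 ± 0.14. Psmb3, a structural beta subunit, was at 0.39 ± 0.09 in RSG 280 and 0.55 ± 0.11 in S 280. Psmb4, a structural subunit that joins the beta ring late, was the 1 beta gene not called at 280 µmol/kg, at 0.01 ± 0.03 in RSG 280 and 0.01 ± 0.05 in S 280. It was slightly lower at 28 and 84 µmol/kg, at -0.08 and -0.07 with RSG and at -0.11 and -0.07 with S, all 4 past the threshold.

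In the 19S cap the base ATPases and the other subunits were counted apart. Of 6 ATPases, 3 were higher in RSG 280 and 4 in S 280, with a median log2 ratio of 0.10 and 0.17, while 10 of 11 non-ATPases were higher in each, with a median of 0.29 and 0.33. Psmd4, a receptor for ubiquitin chains, ran from 0.50 over 0.62 to 0.66 in RSG 280, with a mean of 0.60 ± 0.06 (+52.1%, adjusted p = 5.09e-18, limma). In S 280 it ran from 0.57 over 0.65 to 0.76, with a mean of 0.65 ± 0.07 (+57.3%, adjusted p = 5.27e-19, limma). Psmd4 was thus the non-ATPase with the highest ratio in either group, and its second probe was also higher, at 0.30 and 0.43. Psmd7, a lid subunit and partner of the deubiquitinase Psmd14, was at 0.34 ± 0.06 and 0.41 ± 0.04, and Psmd6, also of the lid, at 0.31 ± 0.12 and 0.37 ± 0.08. The ATPase Psmc5 did not pass the test in any IAT group (-0.04 to 0.00).

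Not all of the family followed in IAT. Psme2, the beta chain of the PA28 activator, was among the genes with the highest ratios: in RSG 280 it ran from 0.38 over 0.75 to 0.82 (mean 0.70 ± 0.17, +62.3%, adjusted p = 6.77e-13, limma), and in S 280 from 0.61 over 0.68 to 0.74 (mean 0.68 ± 0.05, adjusted p = 8.34e-13, limma). Its partner chain Psme1 did not rise with it: the log2 ratio was 0.05 ± 0.09 in RSG 280 (not called) and -0.10 ± 0.02 in S 280, where all 6 mice lay between -0.13 and -0.07 (adjusted p = 0.0111, limma). Both probes of Psme2 gave nearly the same values (0.70 and 0.71 in RSG 280, 0.68 and 0.70 in S 280). Psme3, which forms the nuclear PA28 gamma ring, was higher with RSG 280 (0.16 ± 0.11) and not called with S 280 (0.05 ± 0.05). Psme4, the PA200 activator, was at -0.15 ± 0.06 and -0.17 ± 0.12 by its brightest probe, but its 4 probes ran up to 0.62 and 0.67 with calls in both directions, so its direction depends on the probe. Psmf1, the inhibitor PI31, was higher in all 12 groups by its brightest probe, at 0.10 ± 0.12 and 0.18 ± 0.06 in IAT at 280 µmol/kg. In liver, 1 of its 3 probes was called higher in RSG 28 and in RSG 280, and 2 in RSG 84 and in S 28. Of all probes, 17.9% were called higher in all 6 IAT groups and 12.6% in all 6 liver groups, and the groups of a tissue share 1 pool.

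In liver the constitutive subunits rose as well. At 280 µmol/kg, 17 of 31 constitutive subunits were higher and 3 lower with RSG, and 24 were higher and 1 lower with S, with a median log2 ratio of 0.10 and 0.20 beside -0.03 and -0.05 over all probes. Each of the 36 liver samples had a median over the 31 subunits above 0, from 0.07 to 0.13 in RSG 280 and from 0.08 to 0.31 in S 280. Over all 43 genes, 19 were higher and 3 lower in RSG 280, where 22.1% of all probes were higher and 29.8% lower. In S 280, 28 were higher and 4 lower, against 28.8% and 38.1% of all probes. By role, the alpha genes stood out with 7 of 8 higher in RSG 280 and 8 of 8 in S 280 (median 0.18 and 0.33), against 3 and 7 of 7 constitutive beta genes, 1 and 3 of 6 ATPases and 6 and 7 of 11 non-ATPases.

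Psmb5 was again high in liver. In RSG 280 it ran from 0.16 over 0.41 to 0.47, with a mean of 0.37 ± 0.11 (+29.7%, adjusted p = 1.1e-10, limma), and in S 280 from 0.58 over 0.66 to 0.81, with a mean of 0.68 ± 0.08 (+60.3%, adjusted p = 1.58e-17, limma). Psmd8, a lid subunit, ran from 0.12 over 0.23 to 0.34 in RSG 280 (mean 0.23 ± 0.09, +17.6%, adjusted p = 2.68e-06, limma) and from 0.52 over 0.69 to 0.83 in S 280 (mean 0.69 ± 0.11, +61.1%, adjusted p = 4.74e-17, limma). For both genes no mouse of RSG 280 reached the lowest mouse of S 280. Psmb4, flat in IAT, was at 0.30 ± 0.03 in RSG 280 and 0.48 ± 0.11 in S 280, and Psma5 at 0.36 ± 0.05 and 0.43 ± 0.20. Psma1 was at 0.21 ± 0.17 and 0.47 ± 0.11 (+16.1% and +38.4%). Psmc5, an ATPase of the base, was lower in all 6 liver groups, as were 18.4% of all probes, from -0.09 in S 28 to -0.17 in S 280. Psmc2 and Psmd6 were lower in RSG 280, at -0.09 and -0.07, and both calls were lost without several single mice (adjusted p up to 0.273 and 0.205). Psmb7 in S 280 (0.17 ± 0.19) lost its call without either of 2 mice (adjusted p up to 0.0595, limma).

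Different probes of 1 gene did not always agree. Of 17 genes with more than 1 tested probe, Psmc3ip among them, 2 had probes called in opposite directions in liver of RSG 280 and 3 in liver of S 280, against 1 and 1 in IAT, where the gene was Psme4. Genes with 1 probe called and another not called numbered 7 in liver of RSG 280 and 3 in liver of S 280, against 2 and 2 in IAT. Psmc2, called lower in liver of RSG 280, had its second probe at 0.01. In liver, Psmd4 was at 0.31 and 0.50 by its brighter probe but at -0.16 and -0.25 by the other, so the direction of Psmd4 in liver is not settled by these arrays. Psmd7 was called in both directions in S 280 (-0.15 to 0.20 over 3 probes). The other 2 genes, named after their values were seen, were Psmc6 in RSG 280 (0.08 and -0.12) and Psmd9 in S 280 (0.12 and -0.19).

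The order of the group means over the doses was described first, without a test. In IAT the group means rose from 28 over 84 to 280 µmol/kg for 30 of 31 constitutive subunits with RSG and for 29 of 31 with S. In liver they fell with the RSG dose for 26 of 31 and rose for 0, and with S they rose for 16 and fell for 4. Over all probes the means rose for 26.8% and fell for 27.1% with RSG in IAT and rose for 38.2% and fell for 29.2% with S, and in liver they rose for 23.4% and fell for 22.1% with RSG and rose for 23.6% and fell for 32.9% with S. Psmb5 was at 0.27 ± 0.16, 0.49 ± 0.10 and 0.63 ± 0.19 in IAT of RSG 28, 84 and 280, and at 0.54 ± 0.04, 0.44 ± 0.09 and 0.37 ± 0.11 in liver. With S it was at 0.26 ± 0.10, 0.38 ± 0.12 and 0.79 ± 0.15 in IAT, and at 0.42 ± 0.07, 0.46 ± 0.07 and 0.68 ± 0.08 in liver. Psma1 showed the same order, with 0.33, 0.78 and 0.89 for RSG in IAT and 0.42, 0.36 and 0.21 in liver. In IAT the number of genes higher and lower of 43 was 25 and 4 for RSG 28 (27.6% and 19.3% of all probes) and 32 and 2 for RSG 84 (38.5% and 27.1%), and with S it was 22 and 3 at 28 (28.5% and 19.1%) and 28 and 3 at 84 µmol/kg (33.4% and 22.3%). When each mouse was centred on the median of all probes, the split of IAT S 28 became 16 and 9. In liver it was 30 and 1 for RSG 28 (25.5% and 33.8%) and 21 and 1 for RSG 84 (24.6% and 33.1%), and 19 and 4 for S 28 (23.7% and 28.5%) and 20 and 1 for S 84 (24.5% and 30.8%).

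**Figure D2:**
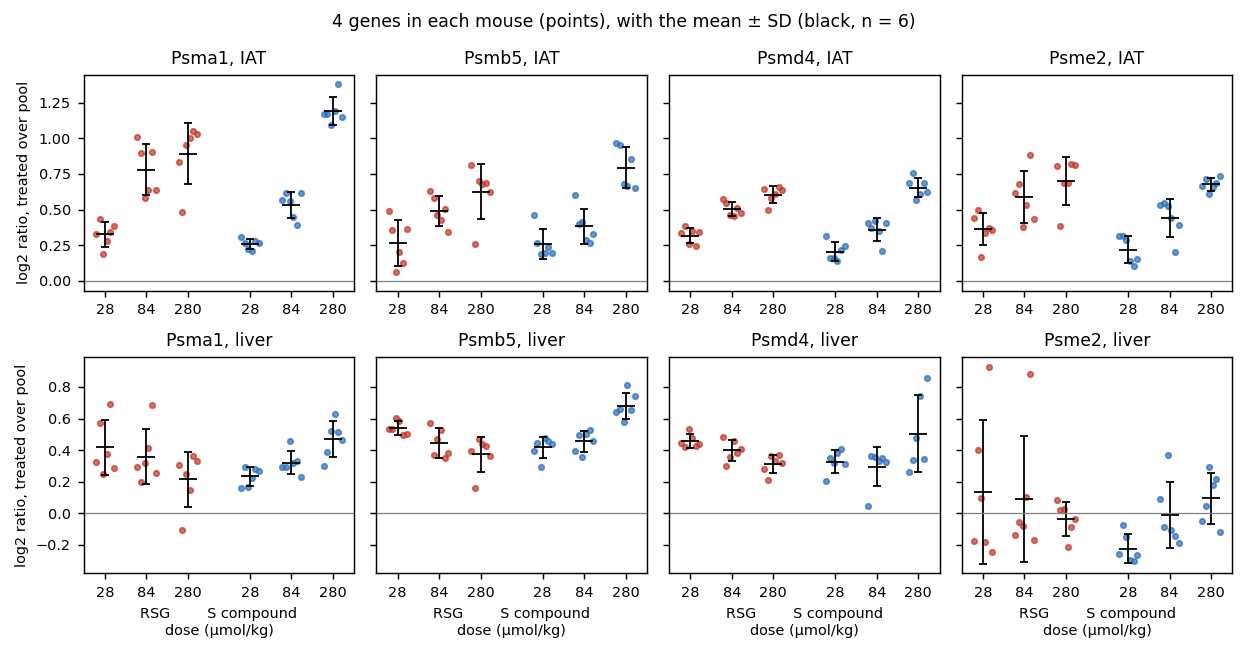
Log2 ratio over the pool (y axis) at 28, 84 and 280 µmol/kg (x axis) of RSG (red) and S (blue) for Psma1, Psmb5, Psmd4 and Psme2, IAT above and liver below. Points are mice and black bars the mean ± SD of 6 mice. In IAT all 4 genes climb with dose, and in liver Psmb5 declines from 0.54 to 0.37 over the RSG doses and climbs from 0.42 to 0.68 over the S doses.

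The difference between the highest and the lowest dose was tested within each compound, where the pool cancels. In IAT, 29 of 43 genes were higher and 0 lower at 280 than at 28 µmol/kg RSG, against 13.7% and 11.7% of all probes, and 32 were higher and 1 lower with S, against 26.5% and 17.0%. The differences with the smallest p for RSG were those of Psma1 (0.57, adjusted p = 1.52e-06), Psmd4 (0.29, adjusted p = 2.67e-06), Psma6 (0.35, adjusted p = 9.81e-06) and Psmd11, a lid subunit (0.18, adjusted p = 6.68e-05), all by limma. For S they were Psma1 (0.93, adjusted p = 5.98e-11), Psmd4 (0.45, adjusted p = 2.95e-10), Psmd7 (0.30, adjusted p = 1.9e-08) and Psmb3 (0.54, adjusted p = 3.2e-08), all by limma. With scan day in the fit 7 genes were called for RSG in IAT, and with only these 2 groups in the fit 17.

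In liver the dose difference of RSG passed the test for no gene. With limma, 0 of 43 genes were called for 280 minus 28 µmol/kg RSG, where 0.0119% of all probes were called higher and 0% lower, while 15 genes had an unadjusted p under 0.05. The smallest p was that of Psmb5, at -0.17 (95% interval -0.27 to -0.07, adjusted p = 0.129, limma). The lower means at the higher RSG dose in liver were therefore not past the threshold for any single gene. With S, 13 of 43 genes were higher at 280 than at 28 µmol/kg and 0 lower, against 13% and 16.5% of all probes. They were led by Psmd8 (0.41, adjusted p = 2.98e-07), Psmb4 (0.31, adjusted p = 1.34e-06), Psma4, an alpha subunit (0.23, adjusted p = 1.24e-05), and Psmb5 (0.26, adjusted p = 9.32e-05, limma throughout), and 5 genes were called with scan day in the fit.

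The difference between the tissues in this dose difference, chosen for a test after the values were seen, was fitted over all 72 samples, and the pools cancel in it. For RSG, 280 minus 28 µmol/kg was more positive in IAT than in liver for 27 of 43 genes and less so for 0, against 12.4% and 7.16% of all probes. Psma1 differed by 0.77 (95% interval 0.55 to 0.99, adjusted p = 3.55e-07) and Psmb5 by 0.53 (0.34 to 0.72, adjusted p = 2.6e-05, limma). For S, 17 genes were more positive in IAT and 2 less so, against 26.9% and 15.2% of all probes. Scan day was not in this fit.

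**Figure D3:**
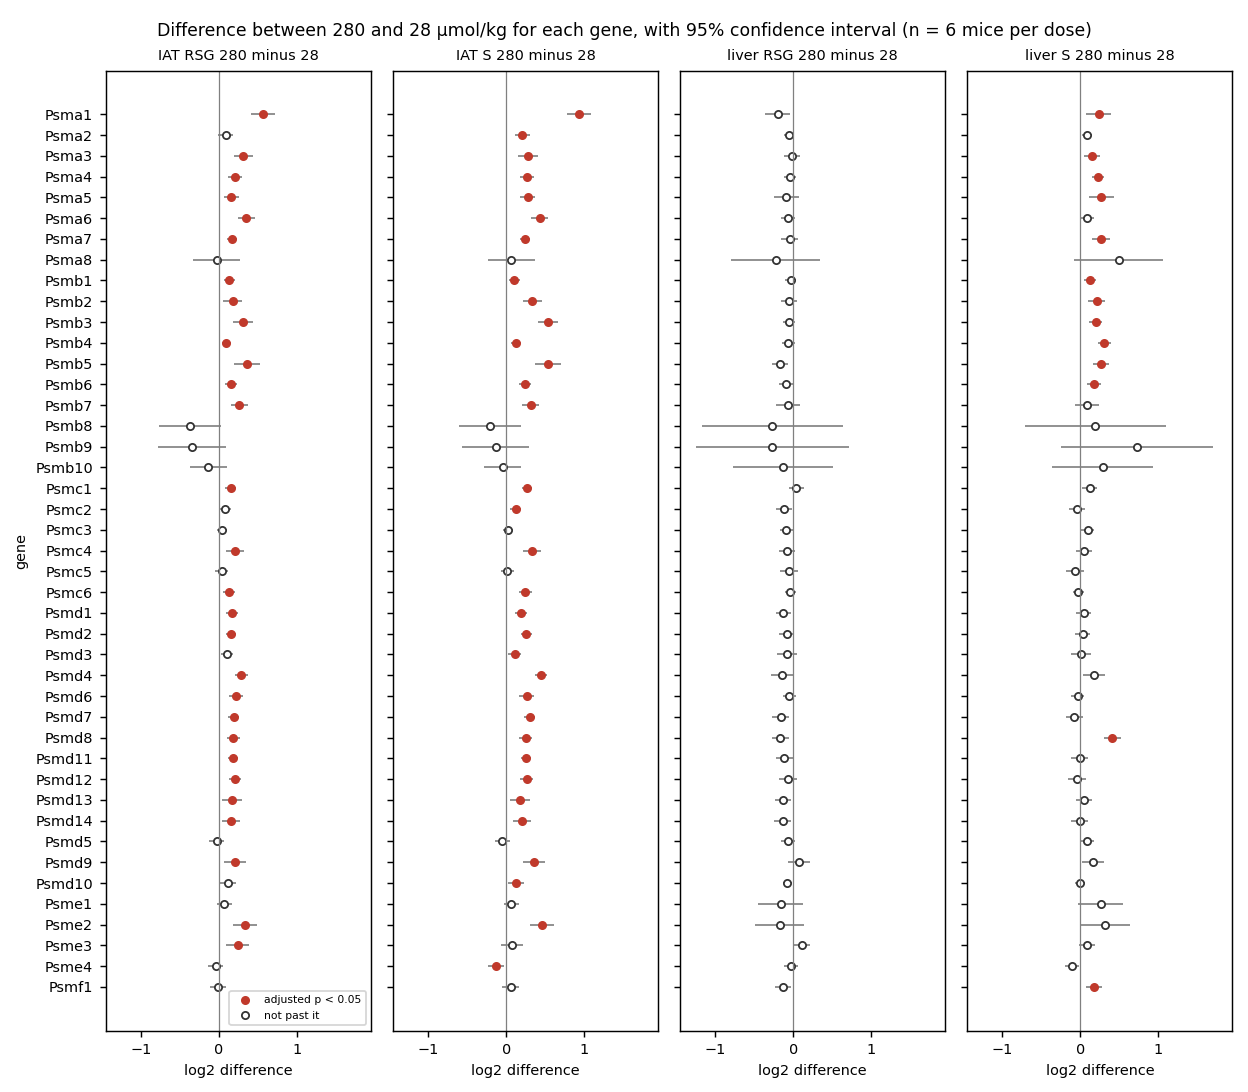
Difference of the log2 ratio between 280 and 28 µmol/kg (x axis) with its 95% confidence interval for the 43 genes (y axis), for RSG and S in IAT and in liver, with filled points at an adjusted p under 0.05. Filled points to the right of 0 number 29 for RSG and 32 for S in IAT, against 0 for RSG and 13 for S in liver. The rows of Psmb8 and Psmb9 are among those with the widest intervals.

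RSG and S were compared at the same molar dose in 6 contrasts over all probes. How S differs from RSG in structure is not given in the sources used here. In IAT, 0 of 43 genes were called at 28 µmol/kg (0% of all probes higher and 0.00649% lower, 5 genes at an unadjusted p under 0.05), 0 at 84 (1.38% and 0.77%, 14 genes unadjusted) and 1 at 280 µmol/kg (0.409% and 1.17%, 7 genes unadjusted), all with limma. The gene called was Psma1 at 280 µmol/kg, where RSG averaged 0.89 and S 1.19, a difference of -0.30 (95% interval -0.46 to -0.14, adjusted p = 0.0408, limma). Each mouse of RSG 280 lay below each mouse of S 280 for Psma1, but the call was lost without any 1 of 8 mice (adjusted p up to 0.136). For Psmb5 the difference was -0.17 (-0.33 to -0.00), for Psmd4 -0.05 (-0.13 to 0.03), for Psme2 0.02 (-0.13 to 0.17), and for Psmb8 0.23 (-0.16 to 0.63), none past the threshold. At 84 µmol/kg the smallest p was that of Psmd4, at 0.14 (0.06 to 0.22, adjusted p = 0.0534, limma), and without replicate 3 of RSG 84 Psma1 was called there (0.29, adjusted p = 0.0407, limma). Centring each mouse on its median gave 1 gene higher and 1 lower at 280 µmol/kg.

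In liver the compounds differed at 280 µmol/kg, where 1 of 43 genes was higher and 12 lower with RSG than with S, against 14.3% higher and 14.3% lower of all probes. Psmd8 averaged 0.23 with RSG and 0.69 with S, a difference of -0.45 (-0.56 to -0.35, adjusted p = 7.11e-08, limma). The differences of Psmb5 (-0.31, -0.41 to -0.21, adjusted p = 1.45e-05), Psmf1 (-0.23, adjusted p = 0.000496) and Psmb4 (-0.18, adjusted p = 0.00134) came next. The 1 gene higher with RSG was Psme4 (0.12). On the 1 scan day shared by both groups, with 2 mice each, the difference was -0.54 for Psmd8, -0.30 for Psmb5 and -0.14 for Psma1, and 8 of 43 genes were above 0. With scan day in the fit 7 genes were called, and with only these 2 groups in the fit 8. At 28 µmol/kg 2 genes were higher with RSG and 0 lower (0.42% and 0.495% of all probes, 13 genes at an unadjusted p under 0.05), Psmb4 by 0.19 (adjusted p = 0.0214) and Psmb3 by 0.15 (adjusted p = 0.0479), but without 1 mouse the Psmb3 call was lost in 11 of 12 cases and the Psmb4 call in 5. At 84 µmol/kg 0 genes were called (0.681% and 1.18%, 4 genes unadjusted, limma). The immunoproteasome did not differ past the threshold at 280 µmol/kg, with Psmb8 at 0.32 (-0.58 to 1.23).

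The responses of IAT and liver were compared at 280 µmol/kg, each tissue against its own pool, so that the pools do not cancel. The fit took the 72 samples as independent, although the methods took both tissues from the same mice, and the labels do not tie the numbers to mice. Over all 24745 probes tested in both tissues the median difference of IAT minus liver was 0.11 for RSG and 0.16 for S. With RSG, 26 of 43 genes were higher in IAT and 2 in liver, against 39.2% and 22.3% of all probes, and with S 21 were higher in IAT and 6 in liver, against 47.4% and 26.2%. With each sample centred on its median, the split was 17 and 5 for RSG and 12 and 14 for S, so the majority towards IAT for S depends on the centring. Of the 11 non-ATPases of the cap, 7 were higher in IAT and 0 in liver with RSG. With S, 7 were higher in IAT and 1 in liver, and the lowest difference was -0.36. Psmd6 and Psmd7, both of the lid, differed with little spread. Psmd6 was at 0.31 in IAT and -0.07 in liver with RSG, a difference of 0.39 (adjusted p = 1.06e-11, limma). With S it was at 0.37 and -0.05, a difference of 0.42. By its brightest probe, Psmd7 was at 0.34 and -0.05 with RSG, a difference of 0.39 (adjusted p = 1.98e-11, limma), and at 0.41 and -0.03 with S, a difference of 0.44. In liver its 3 probes ran from -0.05 to 0.18 with RSG, 1 of them called higher. With S they ran from -0.15 to 0.20, with 1 called higher and 1 lower, so the size of its tissue difference depends on the probe.

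Other members differed between tissues in either direction. Psma1 was higher in IAT by 0.68 with RSG (adjusted p = 3.19e-11) and by 0.72 with S (adjusted p = 1.73e-12), and Psme2 by 0.74 (adjusted p = 6.3e-07) and 0.59 (adjusted p = 2.89e-05, limma). Psmb4 ran the other way, with 0.01 in IAT against 0.30 in liver for RSG, a difference of -0.29 (adjusted p = 2.18e-10), and 0.01 against 0.48 for S, a difference of -0.47 (adjusted p = 1.32e-18, limma). Psmb5 was higher in IAT by 0.25 with RSG (adjusted p = 0.000938) and by 0.11 with S (adjusted p = 0.12, limma). None of the 3 immunoproteasome subunits passed this test (adjusted p from 0.0615 to 0.826, limma). When the samples with the same group and number were taken as pairs, an alternative added after the values were seen, 30 genes were called with RSG and 32 with S, and 2 of the 3 passed. Psmb8 was then higher in IAT by 0.50 with RSG (adjusted p = 0.0347) and by 0.59 with S (adjusted p = 0.0114), and Psmb10 by 0.42 (adjusted p = 0.032) and 0.49 (adjusted p = 0.0109, limma). Psmb9 did not pass with either compound (adjusted p = 0.103 and 0.707, limma).

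At 280 µmol/kg no immunoproteasome subunit was called higher in either tissue. In liver of S 28, Psmb8 ran from -1.63 over -1.26 to -0.84 (mean -1.22 ± 0.32, percent change -57.0%, adjusted p = 0.0016, limma), and in S 280 from -1.67 over -1.11 to -0.41 (mean -1.02 ± 0.50, percent change -50.8%, adjusted p = 0.00479, limma). All 12 of these mice lay below the pool. Psmb9 and Psmb10 were lower in liver of S 28 too, at -0.98 ± 0.38 (adjusted p = 0.0158) and -0.81 ± 0.18 (adjusted p = 0.00291, limma), and Psmb10 in S 280 at -0.53 ± 0.35 (adjusted p = 0.0385, limma). The Psmb10 call in S 280 was lost without replicate 1, 2, 4 or 6 (adjusted p up to 0.135) and with scan day in the fit (-0.75, adjusted p = 0.0542, limma), and the Psmb9 call in S 28 without replicate 4 (adjusted p = 0.0554, limma). With scan day in the fit none of the 3 calls in S 28 remained (adjusted p from 0.143 to 0.354, limma), at log2 ratios of -1.56, -1.09 and -1.02. In S 84 none was called (Psmb8 -0.67 ± 0.69, adjusted p = 0.0707, limma), and without replicate 3 Psmb8 was lower at -0.87 (adjusted p = 0.0315) and Psmb10 at -0.56 (adjusted p = 0.0493, limma).

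With RSG the liver values of the immunoproteasome spread widely and passed no test. Psmb8 ran from -1.55 over -0.71 to 1.56 in RSG 28 (mean -0.43 ± 1.18), from -1.37 over -0.74 to 1.71 in RSG 84 (mean -0.48 ± 1.13) and from -1.72 over -0.53 to -0.24 in RSG 280 (mean -0.70 ± 0.54, adjusted p = 0.0604, limma). For Psmb8 all 6 mice were below the pool at 280 µmol/kg, and 1 mouse of each lower dose, replicate 5, stood far above it. In RSG 28, replicate 2 was high too for the other subunits. Its log2 ratio of Psmb9 minus that of Psmb6 was 1.06, and of Psmb10 minus Psmb7 0.59. Without replicate 5 Psmb8 was lower in RSG 84 at -0.91 (adjusted p = 0.00866), Psmb9 at -0.85 (adjusted p = 0.0253) and Psmb10 at -0.59 (adjusted p = 0.0153, limma). In RSG 28 only Psmb8 of the 3 gained a call without replicate 5, at -0.83 (adjusted p = 0.0204, limma). The call of Psme1 in liver of RSG 28 (0.28, adjusted p = 0.0167) was lost without replicate 5, where Psme1 was at 0.99, and that in RSG 84 (0.24, adjusted p = 0.0399, limma) without replicate 4 or 5. In S 280 Psme1 was at 0.21 ± 0.20 (adjusted p = 0.0588, limma) and was called without replicate 1 or 2.

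In IAT few immunoproteasome values passed the test. Psmb8 was called only in S 280, where it ran from -0.74 over -0.44 to -0.10 (mean -0.43 ± 0.22, percent change -26.0%, adjusted p = 0.00572, limma), and Psmb9 there at -0.35 ± 0.22 (adjusted p = 0.0345, limma), a call lost without replicate 1, 4 or 5. In the authors' table, with 3 mice of S 280, neither was called (Psmb8 -0.35, adjusted p = 0.125, and Psmb9 -0.26, adjusted p = 0.298, limma). In RSG 280 Psmb8 was at -0.20 ± 0.24, Psmb9 at -0.11 ± 0.22 and Psmb10 at 0.08 ± 0.14, none called. Psmb10 was higher in RSG 28 (0.22 ± 0.27, adjusted p = 0.0309, limma), with a highest mouse of 0.67, and this call was lost without replicate 1, 2 or 5.

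**Figure D4:**
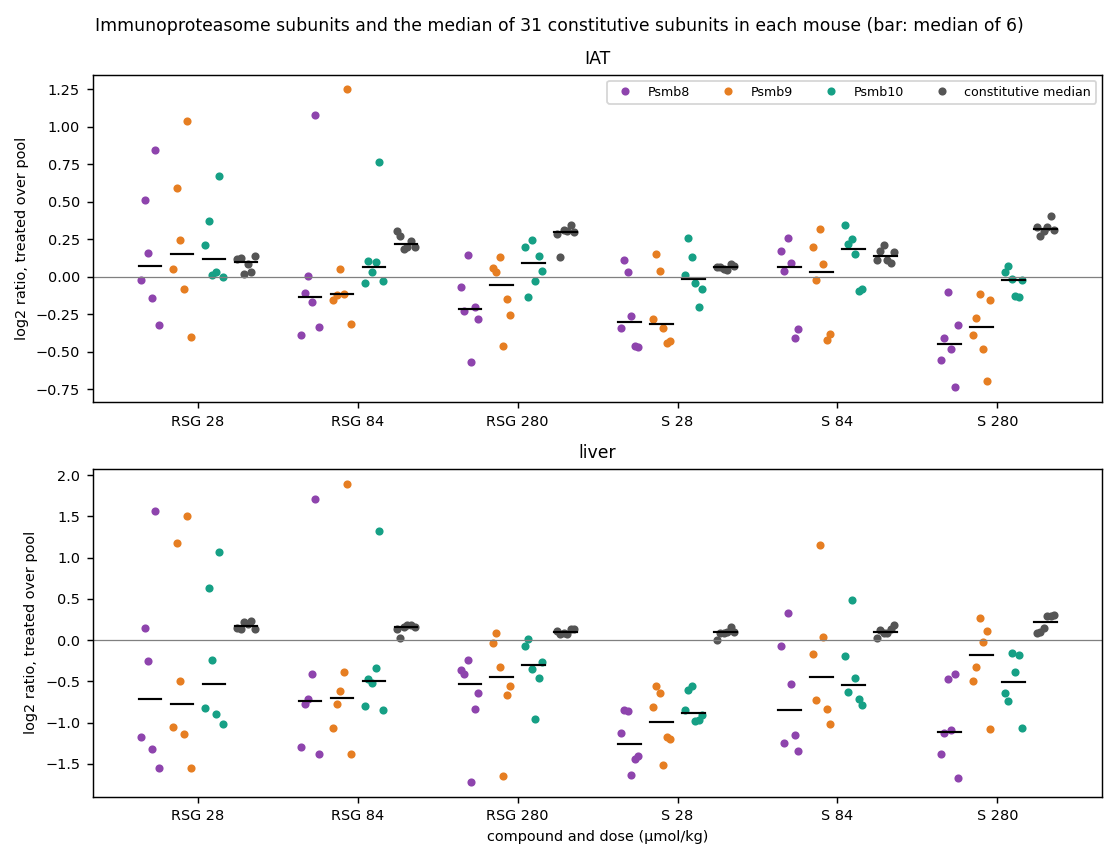
Log2 ratio over the pool (y axis) in each mouse of the 12 groups (x axis) for Psmb8, Psmb9, Psmb10 and the median of the 31 constitutive subunits, IAT above and liver below on its own scale, with bars at the median of 6 mice. The grey points of the constitutive median stay above 0 in all 72 samples, while Psmb8 spans -1.55 to 1.56 in liver of RSG 28.

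Each immunoproteasome subunit was set against the subunit whose place it takes, as the difference of log2 ratios in each sample. Psmb8 minus Psmb5 was below 0 in 32 of 36 IAT samples and 34 of 36 liver samples, Psmb9 minus Psmb6 in 27 and 30, and Psmb10 minus Psmb7 in 23 and 31. The group means of Psmb8 minus Psmb5 were -0.83 ± 0.28 in IAT of RSG 280, -1.23 ± 0.32 in IAT of S 280, -1.08 ± 0.58 in liver of RSG 280 and -1.70 ± 0.55 in liver of S 280. Relative to the pool, the ratio of Psmb8 to Psmb5 RNA was thus 0.564, 0.427, 0.474 and 0.307 times that of untreated mice. In IAT of RSG it was -0.09, -0.47 and -0.83 at 28, 84 and 280 µmol/kg. Not all pairs ran this way at the lower doses in IAT: Psmb9 minus Psmb6 was 0.23 and Psmb10 minus Psmb7 0.22 in RSG 28, and Psmb10 minus Psmb7 was 0.03 in S 28 and 0.06 in S 84. At 280 µmol/kg, 0 of 6 mice in any of the 4 groups had an immunoproteasome median above the constitutive median. At 28 and 84 µmol/kg 3 and 1 mice did in IAT of RSG, 1 and 2 in IAT of S, 2 and 1 in liver of RSG, and 0 and 1 in liver of S. These pair values are descriptions without a test.

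Psmb8 and Psmb9 also spread more between mice than the constitutive subunits. In IAT the SD of Psmb8 was 0.22 to 0.54 over the 6 groups, beside a median SD of the constitutive subunits of 0.04 to 0.07, and in liver 0.32 to 1.18 beside 0.06 to 0.11. None of the 31 constitutive subunits had an SD above that of Psmb8 or Psmb9 in any of the 12 groups. For Psmb10, 3 of 31 had a larger SD in IAT of RSG 280 and 10 of 31 in IAT of S 280, where its SD was 0.14 and 0.08, and 0 in the other 10 groups. Technical repeats of 2 liver RNA samples, 6 of each, had an SD of 0.04 and 0.02 for Psmb8. The repeated samples had a mean Psmb8 ratio of -1.82 (RSG 28) and -1.77 (S 28), both below each of the 6 mice of their group, and the labels do not say from which mice they came. The probes of Psmb8 gave -1.02 and -0.99 in liver of S 280.

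Within groups Psmb8 moved from mouse to mouse with Psmb9, Psmb10 and genes of antigen processing. Group means were removed, 18 relations were computed, and each p is from 100000 permutations within groups, where 1e-05 is the smallest they can give (2.57e-05 after Benjamini-Hochberg). With Psmb9, r was 0.98 in IAT (Spearman's rho 0.97) and 0.96 in liver (rho 0.95), and with Psmb10 0.90 (rho 0.86) and 0.97 (rho 0.96), all at the smallest p. Without the 2 mice farthest from the median these were 0.96 and 0.93, and 0.82 and 0.94. With the median of the interferon and antigen processing genes, r was 0.92 in IAT (rho 0.90) and 0.93 in liver (rho 0.91), also at the smallest p, and 0.88 and 0.87 without those 2 mice. After removal of scan day these 6 values lay between 0.89 and 0.98. With Psmb5, r was -0.05 in IAT (rho -0.03, adjusted p = 0.871) and -0.40 in liver (rho -0.38, adjusted p = 0.0258, permutation), and the liver value was -0.42 without the 2 mice and -0.31 after removal of scan day.

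General leukocyte markers and macrophage markers moved with Psmb8 in liver, and T cell markers did not pass the test. With the median of 5 leukocyte markers r was 0.69 in liver (rho 0.64, adjusted p = 9e-05, permutation) and -0.02 in IAT (rho -0.05, adjusted p = 0.949), and without the 2 farthest mice 0.64 and 0.06. With the macrophage markers it was 0.40 in liver (rho 0.41, adjusted p = 0.0225, permutation; 0.36 without the 2 mice) and 0.00 in IAT (adjusted p = 0.993). With the T cell markers it was 0.22 in liver (adjusted p = 0.373) and -0.16 in IAT (adjusted p = 0.56, permutation). In liver at 280 µmol/kg the mouse medians of the leukocyte markers ran from -0.09 to 1.03 with RSG and from -0.16 to 0.77 with S. Their part in the values of Psmb8 was not tested.

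Psmb8 in IAT and in liver went together under the same replicate number. Over 36 pairs of samples with the same group and number, r was 0.86 (rho 0.77, adjusted p = 2.57e-05, permutation), 0.75 without the 2 farthest pairs and 0.84 after removal of scan day. For Psmb5 r was 0.10 (rho -0.10, adjusted p = 0.743, permutation). Replicate 5 of RSG 28 and of RSG 84 had the highest Psmb8 of their groups in both tissues (IAT 0.85 and 1.08, liver 1.56 and 1.71). The labels do not say that equal numbers mean 1 mouse.

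**Figure D5:**
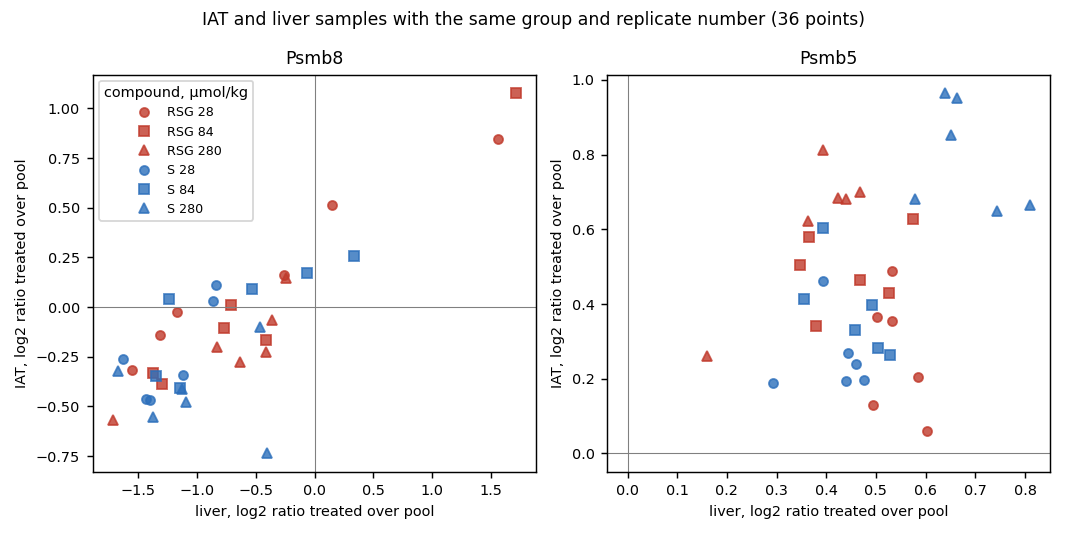
Log2 ratio over the pool in IAT (y axis) against liver (x axis) for the 36 pairs of samples with the same group and replicate number, Psmb8 left and Psmb5 right, with the compound as colour and the dose in µmol/kg as marker. The Psmb8 points run along a rising line up to 1.08 in IAT and 1.71 in liver, and the Psmb5 points do not.

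Genes that build or serve the proteasome were measured beside it. At 280 µmol/kg the shares of all probes called higher and lower were 37.1% and 29.8% in IAT of RSG, 42.7% and 32.0% in IAT of S, 22.1% and 29.8% in liver of RSG, and 28.8% and 38.1% in liver of S, and the counts of the lists stand beside these. Of the 20S assembly chaperones, the 3 on the array were all higher in IAT at 280 µmol/kg (median 0.33 with RSG and 0.48 with S), with Psmg1 at 0.45 and 0.61, Psmg2 at 0.16 and 0.21 and Psmg3 at 0.33 and 0.48. In liver, 0 of 3 were higher with RSG and 2 of 3 with S. The 3 factors that help assemble the cap base, Psmd5, Psmd9 and Psmd10, were higher in 2 of 3 cases with RSG and in 3 of 3 with S in IAT, against 1 and 2 in liver. Of 21 regulators and partners, 14 were higher and 3 lower in IAT of RSG 280 and 14 and 6 in S 280 (median 0.14 and 0.26), against 6 and 4 and 5 and 5 in liver (median -0.00 and -0.02).

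Among these partners, shuttle factors that carry ubiquitinated proteins to the proteasome differed. Ubqln1 was at 1.24 in RSG 280 and 1.52 in S 280 in IAT and at -0.07 and -0.08 in liver (not called), while Ubqln2 was lower in IAT at -0.65 and -0.54 and higher in liver at 0.29 and 0.51. Rad23b was at 0.42 and 0.51 in IAT. Uchl5, a deubiquitinase of the cap, was at 0.15 and 0.16 in IAT and -0.16 and -0.10 in liver. Named after their values were seen, Nfe2l1 (Nrf1), which drives proteasome genes when the proteasome is inhibited, was at 0.19 and 0.33 in IAT and 0.05 in both liver groups (not called), and Usp14, a deubiquitinase bound to the cap, at 0.37 and 0.53 in IAT. Ubb, which encodes ubiquitin, was lower in IAT at -0.39 and -0.28 and higher in liver at 0.38 and 0.41. Over the 10 genes of ubiquitin and its first enzymes, 3 were higher and 4 lower in IAT of RSG 280, 4 and 4 in IAT of S 280, 4 and 4 in liver of RSG 280 and 5 and 4 in liver of S 280.

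Genes of interferon response and antigen processing, which share the immunoproteasome's inducers, were lower more often than higher in IAT at 280 µmol/kg. Of 26 tested in IAT, 2 were higher and 13 lower with RSG 280 (median -0.23) and 1 and 12 with S 280 (median -0.24). In liver, 2 of 25 were higher and 0 lower with RSG (median -0.20) and 2 and 6 with S (median -0.39). Most calls stood in liver of S 28, where 0 of 25 were higher and 17 lower (median -0.58), against 23.7% and 28.5% of all probes. All 3 immunoproteasome subunits were called lower in that group, as were 2 of 2 tested NK cell markers (median -0.78). Other immune lists differed there: 4 of 4 B cell markers were higher (median 0.44) and 0 of 5 leukocyte markers were called (median -0.05). Of 8 macrophage markers 1 was higher and 1 lower, and of 5 T cell markers 0 and 1. The part of these cells was not tested. At the lower doses in IAT, 5 of the 26 interferon and antigen processing genes were higher and 3 lower in RSG 28. The split was 6 and 4 in RSG 84, 3 and 3 in S 28 and 4 and 4 in S 84. Irf8, a factor of myeloid and B cells, was at -1.001 and -0.86 in IAT, and Tapbp, which loads peptides on class I molecules, at -0.47 and -0.69. The receptor chain Ifngr1 was at -0.51 and -0.44 in IAT and 0.24 and 0.26 in liver.

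Cell type markers shifted beside these genes at 280 µmol/kg. In IAT, of 8 macrophage markers 0 were higher and 6 lower with RSG (median -0.63) and 1 and 6 with S (median -0.44), and of 5 leukocyte markers 0 were higher and 3 lower with either compound (median -0.56 and -0.65). Of 8 T cell markers, 2 were higher and 1 lower with RSG and 2 and 6 with S, of 4 NK cell markers 0 and 2 and 0 and 3, of 5 B cell markers 1 and 0 and 1 and 2, and of 4 endothelium markers 1 and 2 and 1 and 3. In liver, 3 of 8 macrophage markers were higher with RSG and 0 lower, and 3 and 1 with S, and 4 of 5 leukocyte markers were higher with RSG and 0 with S. Of 4 B cell markers tested in liver, 4 were higher with RSG and 2 with S (median 0.56 and 0.46), and of 4 endothelium markers 4 and 2 (median 0.24 and 0.17), with 0 lower in each. Of 5 T cell markers 0 were lower with RSG and 3 with S, of 2 NK cell markers 0 and 1, and none of these was higher. Of 5 epithelium markers in liver 2 were higher and 0 lower with RSG and 2 and 1 with S. Of 6 adipocyte markers tested in liver, 4 were higher with RSG (median 1.31) and 3 with S (median 0.27), with 0 and 1 lower. Fabp4 is among them, and the study reported it as a lipid gene raised by RSG in liver. In IAT, of 7 adipocyte markers 2 were higher and 3 lower with RSG (median 0.05) and 4 and 3 with S (median 0.12). Hepatocyte markers in liver were 2 higher and 2 lower of 6 with RSG and 1 and 4 with S. The part of these shifts in the proteasome values was not tested.

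Psmc3ip, the recombination protein kept apart, had its own pattern. In liver of S 280 it ran from 1.27 over 2.38 to 2.93 (mean 2.29 ± 0.61, +390%, adjusted p = 9.65e-13, limma), and in liver of RSG 280 it was at 0.38 ± 0.65 (adjusted p = 0.0806, limma). No mouse of RSG 280 reached the lowest of S 280, and the difference was -1.91 (adjusted p = 1.32e-06, limma). In IAT it was at 0.43 ± 0.04 and 0.49 ± 0.10.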

How the data were processed

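RNA of liver and IAT of treated db/db mice was hybridised against a pool of untreated mice on Agilent 2-colour arrays (168 arrays, 84 samples, of which 12 were technical repeats of liver RNA). Agilent Feature Extraction 9.5 is named in the submitters' processing notes. The deposited array files hold, per spot, the intensity of each channel and the log10 ratio of red over green, already background-subtracted and dye-normalized by that software. A second file of the authors holds log10 ratios per sample and was used only as an alternative and without the 4 columns that did not follow their arrays.

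Here each log10 ratio was turned so that the treated mouse stood over the pool, multiplied to log2, and averaged over the 2 arrays of a mouse. The direction came from the dyes in the labels, and the ratios of the arrays of a dye-swap pair correlated at -0.948 to -0.683 before turning. Control spots and outlier spots were left out. Spots of a probe were averaged, and a gene was represented by its brightest tested probe. A probe was tested if it was well above background on a share of at least 0.5 of the arrays in a group or in the pool, which left 25256 probes in liver and 30796 in IAT. Probes were named through the RefSeq table, which 23374 of 41174 probes matched, and otherwise by the name on the array.

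Group means were fitted with limma 3.58.1 (R 4.3.3) over the 36 mice of a tissue, and over all 72 samples for IAT minus liver, with Benjamini-Hochberg adjustment over all probes tested. The spread in each test is that between mice within groups, shared over all groups of the fit and drawn by limma towards that of other probes. It is therefore not the SD of the single group printed beside a p. The number of arrays limits the precision. The script was tested on simulated data. Relations between genes were tested with 100000 permutations within groups (Python 3.11.15, scipy 1.17.1).

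The members, gene lists and tests were chosen with earlier results of these data known. Named were Psmb5 to Psmb10, Psme1 and Psme2, the 4 highest and 4 lowest called members at 280 µmol/kg of each compound and tissue, the 4 members with the smallest p in each contrast between groups, members whose call depends on 1 mouse, the scan day or the probe, and of each other list the 3 genes with the smallest p at 280 µmol/kg RSG in each tissue, of which some are not reported here. Alternatives were other filters, normexp with loess, median centring, the authors' table, the mean of all probes, saturated spots left out, scan day, slide or replicate number as a block, only the groups compared in the fit, the study's thresholds, and leaving out each mouse; scan day and slide as random blocks, pairing of IAT and liver samples by group and number, and the test of the tissue difference in the dose difference were added after the data were seen.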

Additional observations from a re-analysis of the deposited data

Results flagged for a closer look

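In 29 of 336 groups of 6 values (8.63%, where chance gives about 5%) 1 mouse stood apart from the other 5 by more than Dixon's 95% critical share of the range. In RSG 84 this was the highest mouse for each immunoproteasome subunit in both tissues: Psmb8 was at 1.08 in IAT and 1.71 in liver, Psmb9 at 1.249 and 1.90, and Psmb10 at 0.76 and 1.33, where the next mouse was at or below 0.11. In liver, Psme1 was at 0.99 in 1 mouse of RSG 28 and at 1.01 in 1 of RSG 84, and Psme2 at 0.88 in 1 of RSG 84.

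Among the core subunits, Psmb5 had a lowest mouse at 0.26 in IAT and 0.16 in liver of RSG 280, and a highest at 0.46 in IAT of S 28. Psma1 had a highest mouse at 1.38 in IAT of S 280. Psma4 stood apart at 0.31 in IAT of S 28, at 0.17 in liver of S 28 and at 0.26 in liver of S 280. Psma5 was at 0.72 in 1 mouse of liver RSG 84, and Psmb4 at 0.35 in 1 mouse of liver S 84.

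In the cap and its activators, Psmd4 had a lowest mouse at 0.21 in IAT and 0.048 in liver of S 84, and Psmd6 at 0.084 in IAT of RSG 280. Psmd7 had a lowest mouse at -0.026 in liver of RSG 84 and at -0.30 in liver of RSG 280. Psmd11 stood apart at 0.15 in IAT of S 28 and at 0.029 in liver of RSG 84. Psmc2 was at 0.066 in 1 mouse of IAT RSG 84. Psme2 had a lowest mouse at 0.38 in IAT of RSG 280, Psme3 a highest at 0.38 in the same group, and Psme4 a lowest at -0.24 in IAT of RSG 28.

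The response differed between IAT and liver at 280 µmol/kg, by a test of the difference itself, for 4 genes of each compound with the smallest p. With RSG these were Psmd6 (0.39), Psmd7 (0.39), Psma1 (0.68) and Psmb4 (-0.29), and with S Psmb4 (-0.47), Psmd7 (0.44), Psmd6 (0.42) and Psmc3ip (-1.81), as the log2 ratio in IAT minus that in liver. Each value is that of the gene's brightest probe, and the probes of Psmd7 differed in liver. The difference between 280 and 28 µmol/kg also differed between IAT and liver, for 27 of 43 genes with RSG and for 19 with S. With RSG, 27 were more positive in IAT and 0 less so, against 12.4% and 7.16% of all probes. With S, 17 were more positive in IAT and 2 less so, against 26.9% and 15.2%.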

How the results depend on the processing

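Numbers here are genes called of 43. With the study's thresholds (unadjusted p of 0.001 and 1.3-fold) they were, at 28, 84 and 280 µmol/kg, 0, 6 and 9 for RSG and 0, 3 and 13 for S in IAT, and 5, 3 and 0 for RSG and 3, 1 and 6 for S in liver. For 280 minus 28 they were then 1 (IAT RSG), 6 (IAT S) and 1 (liver S), for IAT minus liver 5 and 5, and for RSG minus S 0 (IAT 280), 0 (liver 28) and 1 (liver 280). With scan day as a fixed block they were 5 for IAT RSG 28, 16 for IAT S 84, 7 for IAT RSG 280 minus 28, 9 for liver S 28, 5 for liver S 280 minus 28, and 0 and 7 for liver RSG minus S at 28 and 280. Where IAT S 280 enters, that block gave no value. With only the groups compared in the fit they were 11 for IAT RSG 28, 17 for IAT RSG 280 minus 28, 0 for IAT RSG minus S 280, and 1 and 8 for liver RSG minus S at 28 and 280. The cause of these changes was not tested.

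For RSG minus S in IAT 84 (0 called) there was 1 with the authors' table, centring, the stricter filter or the replicate block, 2 with normexp and loess and 5 with scan day as a random block. For IAT 280 (1 called) there were 0 with the authors' table or slide as a random block, 2 with centring and 6 with scan day as a random block. For liver 28 (2 called) there was 1 without a filter or with slide, and 0 with scan day as a random block. Leaving out 1 mouse gave 0 to 2 for liver 28, 0 to 2 for IAT 84 and 0 to 1 for IAT 280.

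The mean of all probes turned Psme4 in IAT to 0.17 for RSG 280 and 0.17 for S 280. Psmb5 in IAT of RSG 28 was at 0.18 with scan day (adjusted p = 0.160, limma). Labels do not say that equal replicate numbers pair samples. With the replicate block the numbers were 30, 33 and 33 for IAT RSG, 25, 31 and 36 for IAT S, 32, 26 and 25 for liver RSG and 24, 22 and 33 for liver S. Deviations of samples with the same number had a median r of 0.115 between IAT groups and 0.112 between liver groups, with 47 of 90 pairs over 0.1 in each, so the block is only a hint. It also brought the adjusted p of Psmb8 to 0.0342 in liver of RSG 280 and to 0.0413 in liver of S 84 (limma). Between IAT and liver, deviations of samples with the same group and number had a median r of 0.138, with 21 of 36 pairs over 0.1. The best match was the one with the own number in 24 of these 36, against 16 of 90 between IAT groups and 33 of 90 between liver groups. With the replicate block by group and number 30 genes (RSG) and 32 (S) were called for IAT minus liver, against 28 and 27 without it.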
